A study of Mus musculus with 12 samples.

Results

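Transcripts of 9 cathepsin genes other than cathepsin K were examined in cultured mouse macrophages grown from bone marrow and in the osteoclasts made from such cells. The genes Ctsa, Ctsb, Ctsc, Ctsd, Ctse, Ctsh, Ctsl, Ctss and Ctsz were matched by symbol to the Ensembl identifiers of the deposited expression table, and all 9 were found among its 54532 genes. All cells came from wild-type (WT) mice and were grown in CMG, a source of M-CSF, the growth factor on which macrophages depend. Untreated macrophages received no RANKL, and osteoclasts were differentiated with RANKL, given as 100 ng/mL in the sample labels and as a range ending at that dose in the protocol. On day 5 both cell types were left untreated or given 100 ng/mL lipopolysaccharide (LPS, the bacterial ligand of the receptor TLR4) for 3 hours. Each of the 4 groups had 3 libraries. The labels used here do not say whether these came from separate mice or cultures, or the age or sex of the mice, so the p-values measure the spread between these libraries, which may be technical. Osteoclasts form by fusion of macrophage-lineage precursors, and cells that do not fuse stay in the same well.

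Cathepsins are proteases that work mainly in the acid interior of lysosomes. Ctsb, Ctsc, Ctsh, Ctsl, Ctss and Ctsz encode cysteine proteases of the papain family, Ctsd and Ctse aspartic proteases, and Ctsa a serine carboxypeptidase. They are made as inactive precursors, marked with mannose phosphate for transport to the lysosome, and cut to their active forms there, and cystatins block the cysteine members. Macrophages use them to digest what they take up and to prepare antigens. Osteoclasts secrete cathepsin K onto bone, where it degrades collagen, and the other members are better known there for general lysosomal turnover.

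The libraries held between 15651752 and 20281429 assigned reads, recovered as whole numbers from the FPKM values (reads per kilobase of exon, scaled for depth, here so that the typical gene is level between libraries). The labelled cell types matched their markers. The 8 osteoclast markers summed to between 8.26 and 23.4 FPKM in the 6 macrophage libraries and to between 28984 and 31979 FPKM in the 6 osteoclast libraries. The 6 macrophage markers summed to between 1956 and 2299 FPKM in macrophages and to between 1691 and 1795 FPKM in osteoclasts, where Csf1r and Cd68, which osteoclasts also make, gave most of it. Markers of lymphoid, erythroid, mast and basophil cells summed to less than 1 FPKM in every library. The stromal genes Col1a1 and Col1a2, which give collagen I, were above the filter in macrophages and below 1 FPKM in osteoclasts, and the 5 stromal and osteoblast markers summed to between 24.5 and 34.1 FPKM in macrophages against 0.155 to 0.612 FPKM in osteoclasts. Dendritic cell markers reached at most 6.27 FPKM, in LPS-treated macrophages. Neutrophil markers summed to between 5.41 and 7.66 FPKM in untreated macrophages and to between 6.75 and 16 FPKM with LPS, and reached at most 1.88 FPKM in osteoclasts. The part of these other cells in the differences below was not tested. In such bulk samples, fewer cells of a type and less RNA per cell cannot be told apart.

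The first comparison asked which cathepsins differ between the cell types. Untreated osteoclasts had more transcript of Ctsz and Ctsa than untreated macrophages, and less of Ctsb, Ctsc, Ctsd, Ctsh, Ctsl and Ctss. Ctsc, the activator of granule proteases, was lower by 12-fold and Ctss, an antigen-processing protease, by 4.13-fold, while Ctsz, a carboxypeptidase, was higher by 3.31-fold. Of the 9 genes, 8 passed the filter on low values, at least 1 FPKM in at least 3 libraries, and all 8 of these were called at an adjusted p below 0.05 by limma, 2 higher and 6 lower. Among all 11335 genes tested, 77.8% were called in this comparison, 38.8% higher and 39.0% lower, so that a call alone does not set a cathepsin apart from other genes. Rescaled to a fixed total per library (TPM, transcripts per unit of total), the same 2 were called higher and 6 lower, against 24.3% and 57.0% of all genes. The median log2 difference of the 8 genes was -0.99, against 0 for all genes tested. The same 8 genes were called in the same directions between the LPS-treated cell types, where 83.9% of all genes were called (40.9% higher and 43.0% lower) and the median of the 8 was -1.24 against -0.02. The libraries of the cell types did not overlap for any of the 8, untreated or with LPS, as for 81.4% and 83.6% of all genes. Log2 differences here are differences of log2(FPKM + 1).

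**Figure D1:**
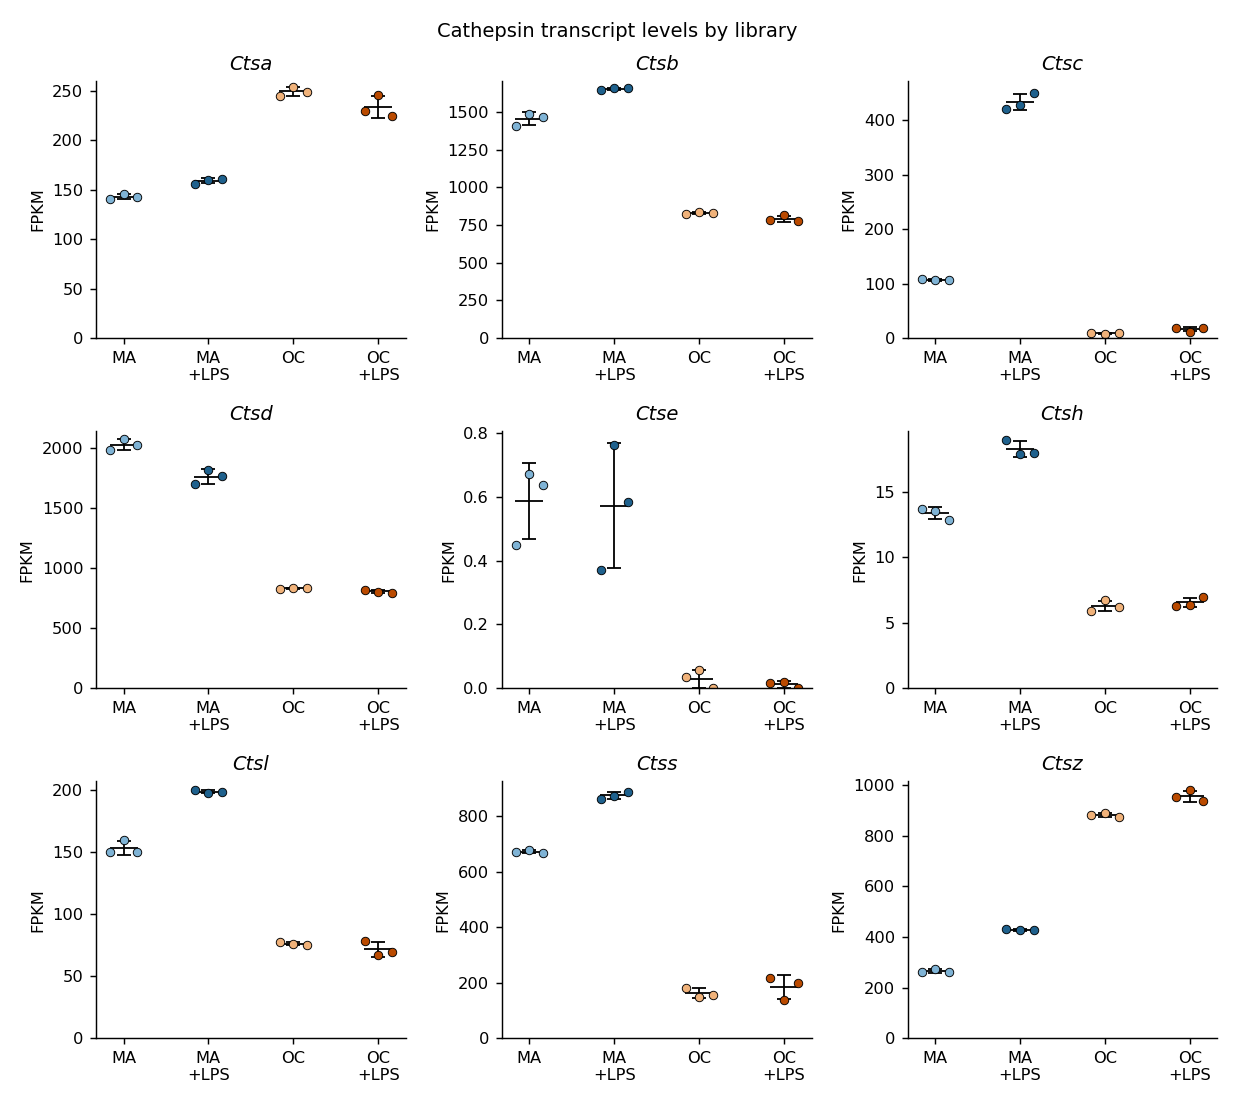
FPKM (y axis, linear, from 0) of the 9 cathepsin genes in macrophages (MA) and osteoclasts (OC), untreated or with LPS. Each point is a library, the bars give the mean and SD of 3 libraries. Ctsz and Ctsa lie higher in osteoclasts, the other 7 genes lie lower, and Ctsc is highest in LPS-treated macrophages.

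Ctsd (ENSMUSG00000007891, chr7:142375911-142388038, minus strand, mm10) encodes the main aspartic protease of lysosomes. It stood at 1984, 2075 and 2024 FPKM in untreated macrophages, at 1697, 1819 and 1764 FPKM after LPS, at 828, 831 and 833 FPKM in untreated osteoclasts and at 820, 805 and 796 FPKM in LPS-treated osteoclasts. Every macrophage library lay above every osteoclast library, and the untreated macrophages lay above the LPS-treated ones. Of its 2351 exon bases, 808 are shared with Gm49369, a protein-coding gene on the same strand that is listed at 0 in all libraries. The difference between untreated osteoclasts and macrophages was -1.29 (SE 0.04, limma adjusted p 2.07e-11), or 2.44-fold lower. Ctse (ENSMUSG00000004552, chr1:131638306-131675505), an aspartic protease of endosomes best known from stomach and immune cells, was close to absent and was not tested. It had 33, 50 and 45 reads in the untreated macrophage libraries, 15, 36 and 26 after LPS, 2, 3 and 0 in untreated osteoclasts and 1, 1 and 0 in LPS-treated osteoclasts. Against a floor of 3 reads per library, Ctse was at least 10.8-fold lower in untreated osteoclasts and at least 10.7-fold lower in LPS-treated ones, where its levels lay at or under that floor.

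Ctsa (ENSMUSG00000017760, chr2:164832873-164841032, plus strand) encodes the protective protein that holds neuraminidase 1 and beta-galactosidase in a complex in the lysosome. It stood at 141, 146 and 143 FPKM in untreated macrophages, at 156, 160 and 161 FPKM after LPS, at 245, 254 and 249 FPKM in untreated osteoclasts and at 230, 246 and 224 FPKM in LPS-treated osteoclasts. All 6 osteoclast libraries were above all 6 macrophage libraries. The untreated difference was 0.80 (SE 0.04, limma adjusted p 1.45e-09), or 1.74-fold, and that between the LPS-treated groups was 0.55. Its exons share 495 bases with the opposite-strand gene Pltp and 324 with Neurl2, and whether the counting used strand is not given in the sources used here. Pltp was lower in osteoclasts (16.9 ± 0.345 FPKM, SD, n = 3) than in macrophages (64.6 ± 1.25 FPKM), the opposite direction to Ctsa. With LPS, Pltp in macrophages was at 85.0 ± 5.99 FPKM, above its untreated level, as Ctsa was. Neurl2 was higher in osteoclasts (6.82 ± 0.533 against 2.73 ± 0.0340 FPKM), the same direction as Ctsa at a far lower level.

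Promoters of lysosomal genes often hold the letters GTCACGTG, the core of the site bound by TFEB and its relatives, or the shorter CACGTG that lies inside it. RefSeq promoter windows (GRCm38.p6, 250 bases before to 50 after a start) matched 6 of the 9 genes with 7 starts. Ctsb, Ctse and Ctsh had no entry. The letters CACGTG were in 3 of these 6 genes and in 7.15% of all 32851 promoters, and GTCACGTG, searched on both strands, was in Ctsa and Ctsd and in 2.25% of all promoters. The matches are shown because Ctsa and Ctsd carry the same letters and differ in direction between the cell types. Capitals mark the match on the strand of the gene, and the match is a description, not a bound site.
Ctsa, chr2:164833748-164833777, plus strand: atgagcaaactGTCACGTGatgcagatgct
Ctsa, chr2:164833767-164833796, plus strand: atgcagatgctCACGTGACcagagctacac
Ctsd, chr7:142388054-142388077, minus strand: tccccCACGTGACctgtatccagt
Ctsd, chr7:142387907-142387936, minus strand: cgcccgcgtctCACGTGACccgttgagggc
Ctsl, chr13:64370740-64370767, minus strand: gcgttagaagcCACGTGctgatctaaat
The 5 matches began at -14 and 5 from the second Ctsa start, at -245 and -98 from the Ctsd start and at -236 from the Ctsl start. The first Ctsa start had no match. All but the Ctsd match at -245 lie inside the bounds printed for their gene. Of the 250 bases before these starts, annotated exons cover 164 in Ctsa, 211 in Ctsd and 48 in Ctsl.

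Among the cysteine endopeptidases, Ctsb (ENSMUSG00000021939, chr14:63122462-63145923) was the most abundant. It stood at 1405, 1487 and 1469 FPKM in untreated macrophages, at 1647, 1655 and 1659 FPKM after LPS, at 820, 833 and 831 FPKM in untreated osteoclasts and at 785, 813 and 774 FPKM in LPS-treated osteoclasts. No osteoclast library reached a macrophage library, and the untreated difference was -0.81 (SE 0.04, limma adjusted p 9.41e-10). Ctsl (ENSMUSG00000021477, chr13:64359337-64370890, minus strand), whose product cuts proteins in lysosomes and endosomes, stood at 150, 160 and 150 FPKM in untreated macrophages, at 200, 198 and 198 FPKM after LPS, at 77.4, 76.2 and 74.9 FPKM in untreated osteoclasts and at 78.5, 67.0 and 69.9 FPKM in LPS-treated osteoclasts. The cell types again did not overlap, with an untreated difference of -1.0 (SE 0.05, limma adjusted p 2.95e-09) that stood at -1.46 between the LPS-treated groups. Of the Ctsl exon bases, 1742 of 6489 overlap the opposite-strand gene Gm47123, and 774 of 6051 Ctsb bases overlap Fdft1, which was at 14.9 ± 0.950 FPKM in untreated macrophages and 5.30 ± 0.375 FPKM in untreated osteoclasts (SD, n = 3). Gm47123 was listed at 0 in all libraries.

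Ctss (ENSMUSG00000038642, chr3:95526786-95556403, plus strand) encodes the protease that trims the invariant chain of MHC class II molecules and stays active at neutral pH. It stood at 672, 677 and 666 FPKM in untreated macrophages, at 863, 874 and 889 FPKM after LPS, at 183, 149 and 157 FPKM in untreated osteoclasts and at 219, 138 and 199 FPKM in LPS-treated osteoclasts. The macrophage libraries lay within a narrow band in each group, whereas the LPS-treated osteoclast libraries were spread (186 ± 42.1 FPKM, SD, n = 3) and overlapped the untreated ones. The untreated difference between osteoclasts and macrophages was -2.04 (SE 0.13, limma adjusted p 2.67e-08), and -2.26 between the LPS-treated groups. The 250 bases before its start are shown because Ctss alone among the 6 genes with a window held the core of the interferon-stimulated response element, a match found in 3.44% of all promoters. Capitals mark the match, which reads as the reverse complement on this strand and ends 12 bases before the start.
Ctss, chr3:95526536-95526785, plus strand: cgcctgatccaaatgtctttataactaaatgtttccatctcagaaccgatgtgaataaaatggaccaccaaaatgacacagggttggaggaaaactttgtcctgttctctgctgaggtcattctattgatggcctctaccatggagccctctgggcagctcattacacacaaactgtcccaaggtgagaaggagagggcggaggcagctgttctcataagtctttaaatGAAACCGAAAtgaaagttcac

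Among the exopeptidases, Ctsc (ENSMUSG00000030560, chr7:88278085-88310888, plus strand) showed the widest range of the 8 tested genes. Its product, dipeptidyl peptidase I, removes dipeptides and activates the granule serine proteases of leukocytes. Ctsc stood at 108, 106 and 106 FPKM in untreated macrophages, at 421, 429 and 450 FPKM after LPS, at 10.2, 7.77 and 8.63 FPKM in untreated osteoclasts and at 18.3, 12 and 19.3 FPKM in LPS-treated osteoclasts. None of the 4 groups overlapped another. The osteoclast values rest on 1096, 763 and 852 reads untreated and on 2101, 1073 and 2046 reads with LPS. Untreated osteoclasts differed from macrophages by -3.46 (SE 0.14, limma adjusted p 2.76e-10), and the LPS-treated groups by -4.66, or 26.2-fold. The 250 bases before its start are shown because Ctsc had the largest LPS difference of the 8 in macrophages on the deposited scale, and none of the 6 motifs searched was in its window. These were CACGTG, GTCACGTG, the core of the interferon-stimulated response element, a kappa B site in a strict and a looser form (in 0.155% and 1.63% of all promoters, the first contained in the second) and TGANTCA (an AP-1 site, in 7.81%), each on both strands.
Ctsc, chr7:88277835-88278084, plus strand: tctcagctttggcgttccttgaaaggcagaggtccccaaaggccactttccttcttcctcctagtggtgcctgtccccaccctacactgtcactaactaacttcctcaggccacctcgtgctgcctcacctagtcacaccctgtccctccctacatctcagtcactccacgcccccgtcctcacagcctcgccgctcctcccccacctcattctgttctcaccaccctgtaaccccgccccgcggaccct
The absence of a match says only that these letters are not in this window.

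Ctsz (ENSMUSG00000016256, chr2:174427493-174439039, minus strand), also called cathepsin X, removes single residues from the carboxyl end of proteins. It stood at 261, 275 and 262 FPKM in untreated macrophages, at 434, 426 and 428 FPKM after LPS, at 882, 892 and 874 FPKM in untreated osteoclasts and at 954, 979 and 935 FPKM in LPS-treated osteoclasts. No group overlapped another. The untreated difference of 1.72 (SE 0.03, limma adjusted p 7.93e-13) was the highest of the 8, and between the LPS-treated groups the difference was 1.15. Ctsz, like Ctsc, held none of the 6 motifs. Ctsh (ENSMUSG00000032359, chr9:90054152-90076089), an aminopeptidase known for processing surfactant protein in lung, was scarce in both cell types. It stood at 13.7, 13.6 and 12.9 FPKM in untreated macrophages, at 19.0, 17.8 and 18.0 FPKM after LPS, at 5.93, 6.72 and 6.19 FPKM in untreated osteoclasts and at 6.31, 6.39 and 6.97 FPKM in LPS-treated osteoclasts. The cell types did not overlap (untreated difference -0.98, SE 0.05, limma adjusted p 4.20e-09).

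The second comparison asked what 3 hours of LPS did in macrophages. Ctsc rose 4.06-fold on the deposited scale, where no other of the 8 tested cathepsins changed by more than 2-fold. On that scale Ctsz, Ctsh, Ctss, Ctsl, Ctsb and Ctsa also rose and Ctsd fell, so that 7 were called higher and 1 lower, against 36.8% of all genes called higher and 33.1% lower (69.9% called in all). The size of these smaller changes depends on how libraries are made comparable. The deposited scale holds the typical gene level, and after LPS the summed FPKM of macrophages was larger. After TPM the median of all genes moved to -0.55, and only Ctsc was still called higher, at 1.37, while 5 of the 8 were called lower, against 15.9% of all genes called higher and 70.0% lower. With quantile normalization, which gives all libraries the same distribution, Ctsc was the only one called higher (1.17) and 6 were called lower, Ctsd (-1.36) and Ctsb (-1.16) the most, against 26.9% and 45.8% of all genes.

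The changes can be given gene by gene with both scales. The Ctsc difference was 2.01 (SE 0.14, limma adjusted p 6.87e-08). Of the 7 neutrophil markers 3 were tested, and Ngp and S100a9 were also called higher with LPS, by 0.69 and 0.83, calls that were lost after TPM. S100a9 was at 3.15, 8.34 and 7.36 FPKM in the LPS libraries, where Ctsc was at 421, 429 and 450 FPKM. Xcr1 was at 0.15 ± 0.0501 FPKM untreated and 5.31 ± 0.330 FPKM with LPS. It was the only one of the 4 dendritic cell markers that was tested. It passed the filter only through the LPS-treated macrophages, so a call of higher there is not independent of the filter. Of the other dendritic markers, Flt3 was listed at 0 in the LPS libraries, and Zbtb46 and Ccr7 were at 0.197 and 0.327 FPKM. The part of neutrophils and dendritic cells in the LPS differences was not tested. Ctsz differed by 0.69 (SE 0.03, limma adjusted p 3.71e-09), a rise of 1.61-fold, and by 0.04 after TPM, which was not called. Ctsh, Ctsl and Ctss were higher by 0.42, 0.37 and 0.38 as deposited, and were at -0.19, -0.27 and -0.27 after TPM, where Ctss was not called. The Ctss call as deposited was weak (limma adjusted p 0.0237) and was lost when any of 4 macrophage libraries was left out. Ctsb and Ctsa were higher by 0.19 and 0.15 as deposited and lower, at -0.46 and -0.49, after TPM. Ctsd, the most abundant of the 9 in untreated macrophages, was lower on both scales, at -0.20 (SE 0.04, limma adjusted p 4.94e-04) and -0.85. Relative to the median of all genes, the TPM values were 1.93 for Ctsc, 0.60 for Ctsz, 0.36 for Ctsh, 0.29 for Ctss, 0.28 for Ctsl, 0.09 for Ctsb, 0.06 for Ctsa and -0.30 for Ctsd. TPM divides each library by a single number, so the deposited order of the genes could hardly change. With quantile normalization it did change: relative to the median, Ctsz was at 0.01, below Ctsh at 0.21, and Ctsb was at -1.02, below Ctsa at -0.58. In all 8 genes the 3 LPS libraries and the 3 untreated libraries did not overlap in deposited FPKM, as in 74.0% of all genes tested.

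**Figure D2:**
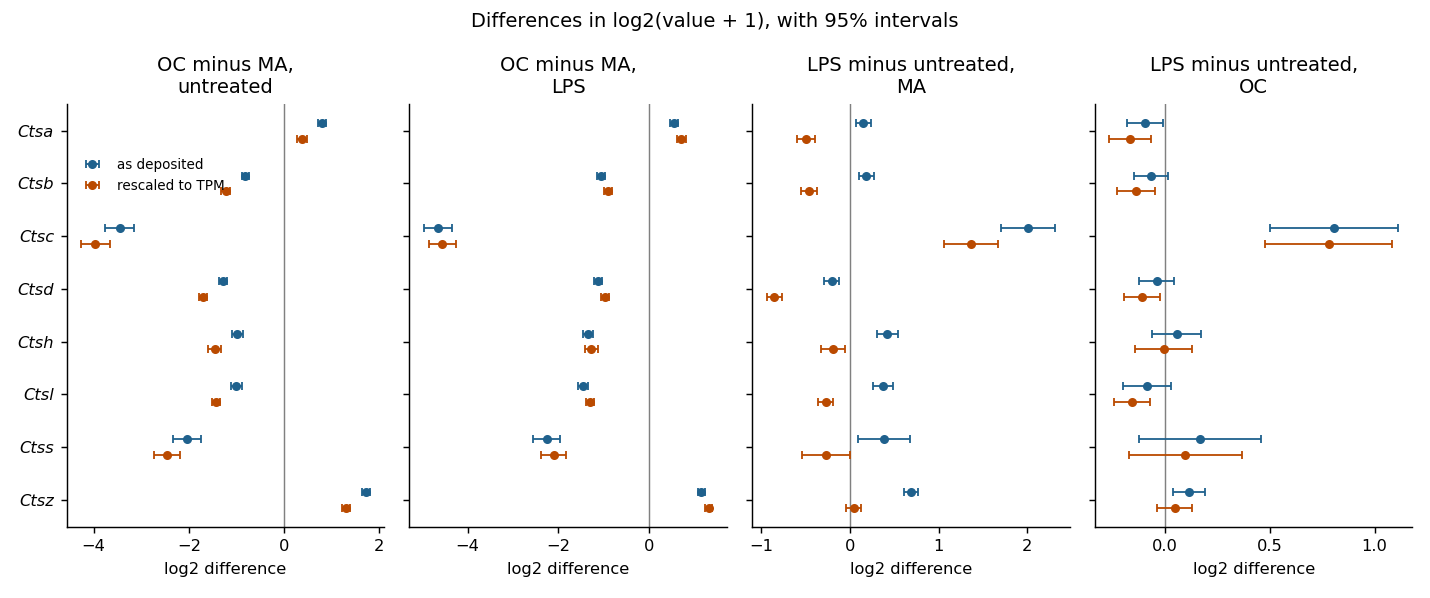
Log2 differences (x axis) of the 8 tested cathepsin genes in 4 comparisons, from limma, with 95% intervals, for the deposited FPKM (blue) and after rescaling to TPM (orange). The cell-type differences keep their sign under both scales, whereas for LPS in macrophages 5 genes change sign after TPM, Ctsz comes to lie near 0, and Ctsc stays above 0.

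On the deposited scale the LPS differences of these genes were smaller in size in osteoclasts than in macrophages. For Ctss the test of this, given below, was not called. After TPM the Ctsz difference was 0.04 in both cell types. Ctsc rose 1.86-fold (log2 difference 0.81, SE 0.14, limma adjusted p 0.00165), with every LPS library above every untreated library. The macrophage marker Adgre1 was called higher with LPS in the same libraries, by 0.85 (SE 0.16, limma adjusted p 0.00258) and by 0.79 after TPM. It was the only one of the 6 macrophage markers called as deposited. The other 5 lay at -0.24 (Cx3cr1), -0.17 (Mertk), -0.08 (Csf1r), -0.03 (Cd68) and 0.05 (Mrc1), and the median of the 6 was -0.06. Ctsz was 1.08-fold higher (0.12, SE 0.03, limma adjusted p 0.0418), and leaving out any of 11 of the 12 libraries lost this call. The other 6 tested genes were not called, so that 2 of 8 were called higher and none lower, against 11.1% of all genes called higher and 6.59% lower (17.7% in all). The differences not called were -0.10 for Ctsa (95% interval -0.18 to -0.01), -0.07 for Ctsb (-0.15 to 0.01), -0.04 for Ctsd (-0.13 to 0.04), 0.05 for Ctsh (-0.06 to 0.17), -0.09 for Ctsl (-0.20 to 0.03) and 0.17 for Ctss (-0.13 to 0.46). Leaving out library 2 of the LPS-treated osteoclasts made Ctsa called lower (-0.13, limma adjusted p 0.020), and leaving out library 1 made Ctsl called lower (-0.15, limma adjusted p 0.0209). The Ctsl difference lay between -0.15 and -0.04 over the fits with a library left out. The intervals from all libraries hold on the deposited scale and cover only the spread between these libraries. They were narrow for Ctsb and Ctsd and wider for Ctss. After TPM they were -0.23 to -0.05 for Ctsb and -0.20 to -0.03 for Ctsd. The untreated and LPS libraries did not overlap for 4 of the 8 genes (Ctsb, Ctsc, Ctsd and Ctsz), as for 34.0% of all genes. After TPM, Ctsc was still called higher, at 0.78, and Ctsa, Ctsb and Ctsl were called lower, at -0.17, -0.14 and -0.16, against 8.29% of all genes called higher and 10.8% lower. Quantile normalization gave the same 4 calls, at 0.75, -0.21, -0.14 and -0.19, against 8.35% and 13.4% of all genes.

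The difference between the LPS effects of the cell types was tested directly, as the effect in osteoclasts minus that in macrophages. It was called for 7 of the 8 genes, 6 below 0 and 1 above, against 56.6% of all genes (26.6% above and 30.0% below). For Ctsc it was -1.20 (SE 0.20, limma adjusted p 2.38e-04), and it remained below 0 after TPM (-0.59) and quantile normalization (-0.41), where it was called in the first and not in the second. The other called differences were -0.57 for Ctsz, -0.46 for Ctsl, -0.37 for Ctsh, -0.25 for Ctsb, -0.25 for Ctsa and 0.16 for Ctsd, and that of Ctss was -0.21 (limma adjusted p 0.361). After TPM, where the median of all genes moved to 0.51, Ctsa, Ctsb and Ctsd were called above 0 and Ctsz, Ctsh, Ctsl and Ctss were not called, against 63.3% of all genes above and 13.9% below. With quantile normalization 6 were called above 0 and none below, against 36.1% and 24.1% of all genes. Relative to that median, the TPM values were -1.10 for Ctsc, -0.51 for Ctsz, -0.40 for Ctsl, -0.33 for Ctsh, -0.19 for Ctsb, -0.19 for Ctsa, -0.15 for Ctss and 0.23 for Ctsd.

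The osteoclast libraries were uneven in Ctss and Ctsc in the same way as in 4 of the 6 macrophage markers. Adgre1, which encodes the macrophage surface protein F4/80, stood at 37.0, 31.2 and 31.3 FPKM in untreated osteoclasts and at 73.1, 42.5 and 70.9 FPKM with LPS, in the order of the library numbers. Mrc1, the mannose receptor, stood at 2.80, 2.39 and 2.53 FPKM and at 3.35, 1.62 and 3.41 FPKM. In the LPS-treated group, library 2 was lowest in Ctss, Ctsc, Adgre1 and Mrc1, and in the untreated group library 1 was highest in all 4. Ctsl had the same lowest and highest libraries, at 77.4, 76.2 and 74.9 FPKM untreated and at 78.5, 67.0 and 69.9 FPKM with LPS. The scarce markers Cx3cr1 and Mertk, at most 0.674 and 1.92 FPKM in osteoclasts, had the same lowest and highest libraries. Csf1r and Cd68 did not: in the LPS-treated group both were highest in library 2, at 304 and 1446 FPKM. Without library 2 of the LPS-treated osteoclasts, the Ctss difference was 0.36 (limma adjusted p 0.00653) and that of Ctsc 1.01. Without library 1 of that group the Ctss difference was 0.03 (limma adjusted p 0.907), and without library 3 that of Ctsc was 0.69, the lowest value for each over the 12 libraries left out in turn. The stromal genes Col1a1 and Col1a2 had the same highest and lowest libraries, at levels near 0: Col1a1 was at 0.0991, 0.0541 and 0.0448 FPKM untreated and at 0.285, 0.0988 and 0.417 FPKM with LPS. The share of all genes with the same highest and lowest libraries was not counted. The part of unfused macrophages or stromal cells in these values was not tested.

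**Figure D3:**
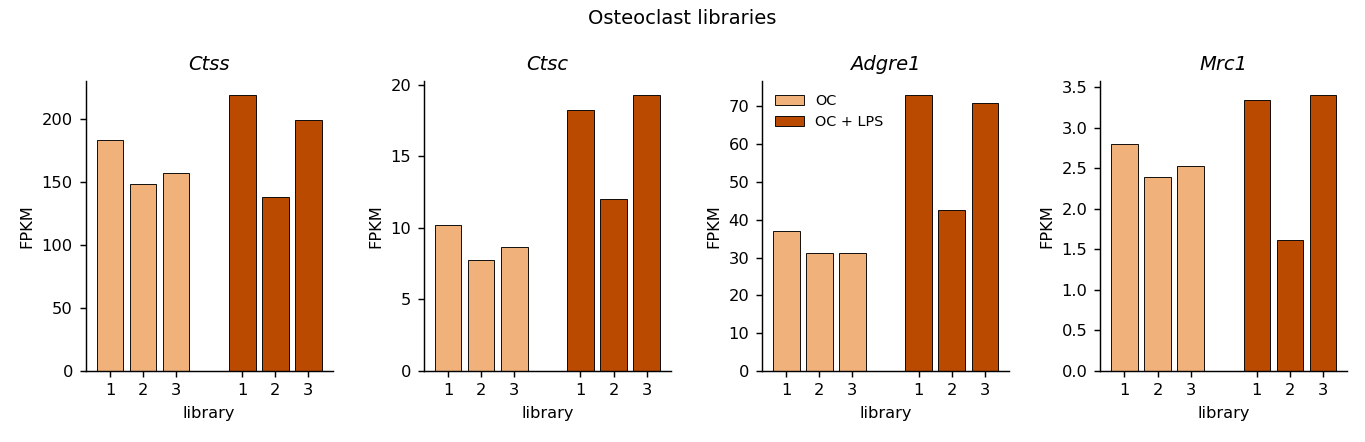
FPKM (y axis, linear, from 0) of Ctss, Ctsc, Adgre1 and Mrc1 in the 3 untreated and 3 LPS-treated osteoclast libraries, 1 bar per library. Library 2 of the LPS-treated group is lowest of its group in all 4 genes, at 138 FPKM for Ctss.

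Levels of different genes were set side by side per length of exon. In untreated macrophages the order was Ctsd, Ctsb, Ctss, Ctsz, Ctsl, Ctsa, Ctsc, Ctsh and Ctse, and no neighbours overlapped. After LPS, Ctsc moved from the seventh place up to the level of Ctsz, at 434 ± 15 against 429 ± 3.87 FPKM (SD, n = 3), and those neighbours overlapped. In untreated osteoclasts Ctsz led, followed by Ctsd and Ctsb, which overlapped at 830 ± 2.58 and 828 ± 6.91 FPKM, and then Ctsa, Ctss, Ctsl, Ctsc, Ctsh and Ctse. With these lengths the order in LPS-treated osteoclasts was the same. The order rests on the lengths used: the deposited values divide by all merged exons, and with the principal transcript alone Ctsb led in untreated osteoclasts, at 1057 FPKM, ahead of Ctsd at 918 and Ctsz at 883. With LPS the order on that length was Ctsb at 1009 FPKM, Ctsz at 956 and Ctsd at 892, with no overlap. On that length Ctsc was at 1010 FPKM in LPS-treated macrophages, above Ctss. Ctsl has a second principal transcript, of 1971 bases against 6168, on which it would stand at 505 FPKM in untreated macrophages.

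The 9 genes together summed to 4837 ± 102 FPKM in untreated macrophages, 5528 ± 78.7 with LPS, 3045 ± 9.80 in untreated osteoclasts and 3068 ± 42.8 in LPS-treated osteoclasts (SD, n = 3). As a share of all FPKM this was 1.87 ± 0.0308%, 1.37 ± 0.0289%, 0.882 ± 0.00668% and 0.846 ± 0.0207%. Their make-up shifted: Ctsz was 5.51 ± 0.0737% of the sum in untreated macrophages and 29.0 ± 0.227% in untreated osteoclasts, while Ctsd was 41.9 ± 0.0700% and 27.3 ± 0.168%. Ctss was 13.9 ± 0.261% and 5.35 ± 0.583% of the sum. Ctsc was 2.21 ± 0.0667% in untreated macrophages and 7.84 ± 0.215% with LPS. Cathepsin K itself, from Ctsk, was at 1.43 FPKM in untreated macrophages and 15541 FPKM in untreated osteoclasts, so that the 9 genes were 16.4 ± 0.304% of the total with Ctsk there and 99.97 ± 0.0230% in macrophages.

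**Figure D4:**
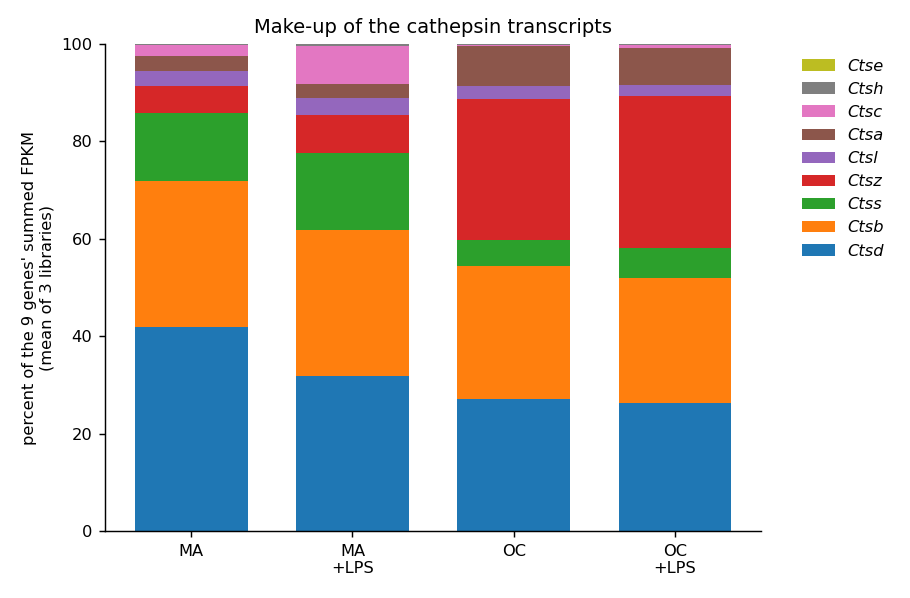
Share of each gene in the summed FPKM of the 9 cathepsin genes (y axis, percent, mean of 3 libraries) in macrophages (MA) and osteoclasts (OC), untreated or with LPS. Ctsz takes 29.0% in untreated osteoclasts against 5.51% in untreated macrophages, and the Ctsc band is widest in LPS-treated macrophages.

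Among 14 other cathepsin genes only Ctsk, Ctsf and Ctso passed the filter. Ctsf, a further cysteine protease, was at 4.29 ± 0.474 FPKM in untreated macrophages and 6.37 ± 0.534 FPKM in untreated osteoclasts (difference 0.48, limma adjusted p 4.14e-04), a call that was lost after TPM (0.15). Ctso was at 9.34 ± 0.313 and 5.50 ± 0.203 FPKM (difference -0.67, limma adjusted p 3.81e-08). The leukocyte cathepsins Ctsg and Ctsw stayed below 1 FPKM in all libraries, as did the granule proteases Elane, Prtn3, Gzma and Gzmb, which cathepsin C activates in other leukocytes.

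Of 11 inhibitor genes, 5 were tested, and between untreated cell types 3 were higher in osteoclasts and 1 lower, against 38.8% and 39.0% of all genes tested. Between the LPS-treated cell types 2 were higher and 3 lower, against 40.9% and 43.0%. Cstb, the cytosolic cystatin B, was at 347 ± 9.48 FPKM in untreated macrophages and 1848 ± 19.1 FPKM in untreated osteoclasts (difference 2.41, SE 0.05, limma adjusted p 1.38e-12). Cst3, the secreted cystatin C, was at 374 ± 11.5 and 823 ± 31.7 FPKM (1.14, SE 0.05, limma adjusted p 9.57e-10). Both differences kept their direction after TPM, at 1.99 and 0.72. Cst7, or cystatin F, an inhibitor of cathepsin C, was at 0.0875, 0.0431 and 0 FPKM in untreated macrophages, at 9.30, 8.49 and 8.95 FPKM after LPS, at 3.63, 2.70 and 1.91 FPKM in untreated osteoclasts and at 2.71, 2.83 and 2.95 FPKM in LPS-treated osteoclasts. It thus rose with LPS in macrophages, beside Ctsc, and was not called in osteoclasts. Serpina3g, a serpin that inhibits cathepsins, was at no more than 0.101 FPKM in untreated macrophages and at 15.2, 14.1 and 16.1 FPKM after LPS, and it was listed at 0 in untreated osteoclasts and at 1.03, 1.11 and 2.16 FPKM after LPS. In macrophages 4 of the 5 inhibitors were called higher with LPS, of which Cst3 and Cstb reversed after TPM and quantile normalization, against 36.8% of all genes. In osteoclasts 1 of 5 was called higher, against 11.1%. The median difference of the 5 between the cell types was 1.14 untreated, against 0 for all genes, and -0.40 with LPS, against -0.02. Cst7 was higher in untreated osteoclasts than in untreated macrophages and lower in LPS-treated osteoclasts than in LPS-treated macrophages (-1.37, limma adjusted p 5.80e-07).

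Genes that process the precursors or deliver them to lysosomes were tested too. Lgmn, the legumain that cuts several cathepsins from their single-chain to their double-chain forms, was at 537 ± 17.2 FPKM in untreated macrophages and 67.0 ± 2.54 FPKM in untreated osteoclasts (difference -2.99, SE 0.04, limma adjusted p 1.38e-14). The partners of cathepsin A moved the same way as Ctsa between the cell types: Neu1 was at 19.2 ± 0.319 and 36.9 ± 0.699 FPKM, and Glb1 at 33.4 ± 1.23 and 136 ± 5.94 FPKM, both called higher in osteoclasts on the deposited scale and after TPM. Psap, the saposin precursor, was called higher by 0.29 as deposited and lower, at -0.13, after TPM. In all, 3 of these 4 genes were called higher and 1 lower, against 38.8% and 39.0% of all genes, with a median difference of 0.60 against 0. After TPM 2 were higher and 2 lower, against 24.3% and 57.0%, with a median of 0.20 against -0.38. Of 6 delivery genes, 3 were higher and 2 lower in untreated osteoclasts, again against 38.8% and 39.0%, with a median of 0.41. After TPM 3 were higher and 3 lower, against 24.3% and 57.0%, with a median of 0.00075 against -0.38 for all genes. Between the LPS-treated cell types 2 were higher and 2 lower, against 40.9% and 43.0%, with a median of -0.01. After TPM 4 were higher and 1 lower there, with a median of 0.15 against 0.12 for all genes. Gnptab, part of the enzyme that attaches the mannose phosphate mark, was at 26.5 ± 0.467 and 189.6 ± 2.85 FPKM (2.79, SE 0.05), Igf2r, a receptor for that mark, at 15.7 ± 0.556 and 109 ± 8.04 FPKM (2.72, SE 0.07), and Sort1, a receptor that also carries lysosomal proteins, at 9.56 ± 0.227 and 0.616 ± 0.131 FPKM (-2.71, SE 0.08). Sort1 passed the filter only through the macrophage libraries, so its call is not independent of the filter. M6pr, the other receptor for the mark, rose with LPS in macrophages, from 74.2 ± 2.20 to 162 ± 5.66 FPKM (1.11, SE 0.04, limma adjusted p 5.32e-11), and remained higher after TPM (0.48).

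**Figure D5:**
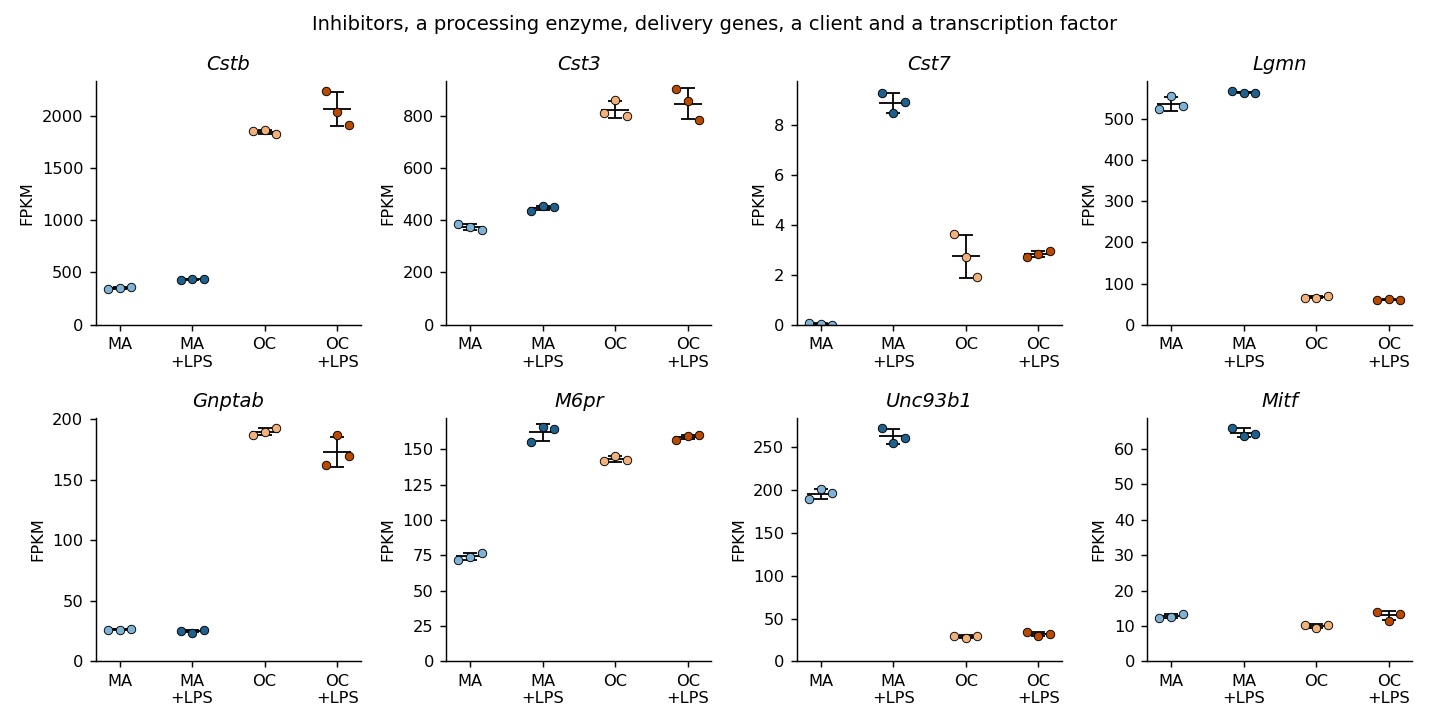
FPKM (y axis, linear, from 0) of 8 genes that act with cathepsins, in macrophages (MA) and osteoclasts (OC), untreated or with LPS. Points are libraries, and bars give the mean and SD of 3. Cstb, Cst3 and Gnptab lie higher and Lgmn and Unc93b1 lower in osteoclasts, and Cst7, M6pr and Mitf rise with LPS in macrophages.

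All 4 transcription factors of the family that controls lysosomal genes were tested. Mitf was at 12.7 ± 0.624 FPKM in untreated macrophages, 64.6 ± 1.23 FPKM after LPS, 10.1 ± 0.531 FPKM in untreated osteoclasts and 13.0 ± 1.33 FPKM in LPS-treated ones (LPS difference in macrophages 2.26, SE 0.07, limma adjusted p 2.37e-11). Tfec was at 1.32 ± 0.0899, 20.3 ± 1.75, 9.07 ± 0.467 and 14.3 ± 1.22 FPKM in the same order of groups. Tfeb moved the other way in macrophages, from 8.81 ± 0.474 to 0.755 ± 0.190 FPKM (-2.49, SE 0.09, limma adjusted p 2.23e-10). Tfe3 was not called with LPS in macrophages as deposited (15.8 ± 0.319 and 14.6 ± 0.285 FPKM) but was after TPM (-0.74), and was lower in osteoclasts, at 5.71 ± 0.155 FPKM untreated. Between untreated cell types 1 of the 4 was higher in osteoclasts and 3 were lower, against 38.8% and 39.0% of all genes, with a median of -0.69 against 0, and these directions held after TPM. Between the LPS-treated cell types the count was again 1 higher and 3 lower, against 40.9% and 43.0% of all genes, with a median of -0.90 against -0.02, but Tfeb was now the higher one (1.15, SE 0.09) and Tfec was lower (-0.48, SE 0.07), so that both differed in direction from the untreated comparison.

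The tested substrates of cathepsins in antigen and nucleic acid sensing were Cd74, Tlr7 and Tlr9. They were lower in untreated osteoclasts, as were Ctss and Ctsl, which process several of them. So was Unc93b1, listed with them as a carrier of receptors and not as a substrate. The list held 8 genes, of which 4 were tested. These 4 were called lower, against 39.0% of all genes, with a median of -2.90 against 0. Tlr9 passed the filter only through macrophages, so its call is not independent of the filter. Elane, Prtn3, Gzma and Gzmb, the rest of the list, were below 1 FPKM in all libraries. Unc93b1, which carries nucleic acid-sensing receptors to endolysosomes, was at 195 ± 5.78 FPKM in untreated macrophages and 28.9 ± 1.59 FPKM in untreated osteoclasts, Tlr7 at 48.9 ± 2.38 and 2.20 ± 0.263 FPKM, and Tlr9 at 7.87 ± 0.195 and 0.0486 ± 0.0254 FPKM. Cd74, the invariant chain cut by cathepsin S, was scarce, at 7.37 ± 1.46 and 5.03 ± 0.493 FPKM. The difference of Cd74 (-0.46, limma adjusted p 0.0120) was lost on leaving out either of 2 libraries. With LPS, Cd74 in macrophages rose to 17.7 ± 0.883 FPKM (1.17, SE 0.15, limma adjusted p 1.49e-05).

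For each tested cathepsin gene the most similar profiles were found as the smallest root-mean-square difference of centred log2(FPKM + 1) over the 12 libraries. For Ctsc, which itself varied by 2.17 around its mean on that measure, they were Timp1 at 0.16 and Wfdc17 at 0.21. For Ctss they were Clec7a at 0.10 and Atp8b4 at 0.10, and for Ctsz Wsb2 at 0.05 and Sms at 0.07. Ctsd was nearest to Ggt5 at 0.05 and Lama3 at 0.06, Ctsb to Cltc at 0.03 and Dock8 at 0.05, and Ctsa to Eef2 at 0.04 and Spg7 at 0.05. Ctsl was nearest to Laptm4a at 0.06 and Itm2b at 0.07, and Ctsh to Arhgap17 at 0.07 and Ier5 at 0.07. Among the cathepsins themselves, Ctsh and Ctsl were the most alike, at 0.10, and the nearest cathepsin to Ctsc, Ctss, was at 1.14.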

How the data were processed

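Messenger RNA was sequenced in 12 libraries, 3 in each of 4 groups named in the labels. The authors deposited FPKM values per Ensembl gene. The submitters' processing notes name fastp, STAR, featureCounts, DESeq2 and the build mm10, with no versions, and the labels name a NEBNext Ultra RNA kit. Whether the counting used strand is not given in the sources used here. With GENCODE M21 merged exon lengths, 96.8% of the 25854 genes above 0 gave whole reads, and 99.8% when a length was searched for the rest (tolerance 0.02 reads). The deposited denominators differed by less than 0.001% from median-of-ratios size factors of those reads, so the deposited FPKM hold the typical gene level, and they departed by up to 23.4% from the read totals.

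The 11335 genes that reached 1 FPKM in 3 or more libraries were fitted as log2(FPKM + 1) with limma 3.58.1 (R 4.3.3), 4 group means in one fit, moderated variances with a trend, 2-sided tests and Benjamini-Hochberg adjustment over all genes tested, called below 0.05. A fold given as such is the ratio of mean FPKM, and log2(FPKM + 1) differences understate the change of low genes. All 9 cathepsins are described, with 6 lists of 47 pathway genes, 8 marker lists of 40 genes, and the 2 nearest profiles to each tested cathepsin. The members and lists were chosen with earlier results of these data known. Alternatives were another pseudocount (0.1), no filter, a filter on mean FPKM (5), TPM, quantile normalization, only the groups compared, a replicate block, no variance trend, each library left out, and voom on the recovered reads, which was chosen after seeing the data. Promoters are from RefSeq (GRCm38.p6). Protein features were not analysed here. No interval is given for read counts, and the floor of 3 reads covers counting error only.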

Additional observations from a re-analysis of the deposited data

Results flagged for a closer look

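The effect of LPS differed between osteoclasts and macrophages for 7 cathepsin genes, by the limma test of the difference itself (osteoclasts minus macrophages, adjusted over all genes tested). The values were -1.20 for Ctsc (SE 0.20), -0.57 for Ctsz (SE 0.05), -0.46 for Ctsl (SE 0.07), -0.37 for Ctsh (SE 0.07), -0.25 for Ctsb (SE 0.05), -0.25 for Ctsa (SE 0.05) and 0.16 for Ctsd (SE 0.05). Of all genes tested, 56.6% were called in this comparison. After TPM 4 cathepsins were called, 3 above 0 and 1 below, against 63.3% and 13.9% of all genes, and Ctsa (0.33), Ctsb (0.32), Ctsh (0.19), Ctsl (0.11) and Ctsz (0.0037) changed sign.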

How the results depend on the processing

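The cell-type calls of the 8 tested cathepsins kept their direction and their side of the threshold under all alternatives run. The LPS calls depended on scaling. After TPM the reversed differences were, for LPS in macrophages, -0.49 (Ctsa), -0.46 (Ctsb), -0.19 (Ctsh), -0.27 (Ctsl) and -0.27 (Ctss), for LPS in osteoclasts -0.0077 (Ctsh, not called in either), and for the difference between cell types 0.33 (Ctsa), 0.32 (Ctsb), 0.19 (Ctsh), 0.11 (Ctsl), 0.36 (Ctss) and 0.0037 (Ctsz). After quantile normalization they were -0.72 (Ctsa), -1.16 (Ctsb), -0.50 (Ctsl), -0.71 (Ctss) and -0.12 (Ctsz) in macrophages, and 0.50 (Ctsa), 1.01 (Ctsb), 0.31 (Ctsl), 0.78 (Ctss) and 0.17 (Ctsz) for the difference between cell types. The cause was not tested.

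In osteoclasts, 2 cathepsins were called with LPS. The number was 4 after TPM, 4 after quantile normalization, 1 without a filter, 1 with only the groups compared, 1 without the variance trend and between 1 and 3 when a library was left out, with Ctss gained as higher and Ctsa as lower without library 2 of the LPS-treated osteoclasts and Ctsl as lower without library 1. Ctsz was the call lost in each fall to 1, and its adjusted p lay between 0.0360 and 0.135 over the fits that left out a library. The difference between cell types was called for 4 genes after TPM and for 6 to 7 when a library was left out, where Ctsd was lost without library 2 of untreated macrophages, library 1 of LPS-treated macrophages or library 1 of untreated osteoclasts. LPS calls in macrophages numbered 7 or 8 with a library left out, Ctss being lost without untreated library 1 or 3 or LPS library 2 or 3. Without a filter Ctss lost its LPS call in macrophages (adjusted p 0.0660) and Ctsd the difference between cell types (adjusted p 0.187).

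Whether replicate numbers pair the libraries was not settled. Same-numbered untreated and LPS libraries had correlations of 0.104, 0.0967 and -0.0529 in macrophages and 0.0718, 0.0828 and 0.0289 in osteoclasts. Of the untreated libraries, only library 3 of macrophages did not correlate best with its own number. Different-numbered libraries there lay between -0.137 and 0.0476. Between cell types, same-numbered libraries lay between -0.0702 and 0.0506. With a replicate block 1 cathepsin was called with LPS in osteoclasts, Ctsz reaching an adjusted p of 0.0532, and no other call of the 8 genes changed. The share of the 9 genes was 2.14%, 1.66%, 1.05% and 0.990% of recovered reads in untreated and LPS-treated macrophages and untreated and LPS-treated osteoclasts, and 1.95%, 1.41%, 1.02% and 0.980% of FPKM without mitochondrially encoded genes. A planned count-model test was not run, since the table holds no count column, and voom on the recovered reads changed no call of the 8 cathepsins, though it changed some calls of the listed pathway genes (Cstb, Gnptab and Tfeb with LPS in osteoclasts, for example).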
